A study of Caenorhabditis elegans with 2 samples.

Results

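The regions described here are peaks of the transcription factor DSC-1 whose summit lies in the promoter window of exactly 1 protein-coding gene on an autosome of Caenorhabditis elegans. Chromatin immunoprecipitation and sequencing was done with an anti-GFP antibody on whole hermaphrodite larvae of strain OP522, which carries unc-119(tm4063) and the insertion wgIs522, expressing DSC-1 fused at its C terminus to GFP and FLAG. Both samples are L1 larvae taken 6 hours after synchronization by starvation following bleaching, and they form 1 group of 2 biological replicates. There is no second condition, and the named control was not analysed here. The authors' list of pooled peaks that passed their irreproducible discovery rate (IDR) threshold, a measure of how well peak ranks repeat between replicates, was searched on ce11. The promoter window of a gene takes in 1000 bp before its outermost annotated start and 200 bp after it, and summits within 500 bp of a tRNA gene start were left out. This rule chose 1327 peaks, which are 21.1% of all 6283 IDR peaks and 27.5% of the 4820 on autosomes (exact 95% interval 26.3 to 28.8). They belong to 1252 genes. A further 630 autosomal peaks lie in the windows of several genes at once and 396 lie in the window of a single gene on X, and 25 autosomal summits in a single window were left out for a tRNA gene. Intervals here and below are Clopper-Pearson and cover counting error only. Peaks and genes are not replicates, so shares are given as descriptions of this list and no test was made.

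DSC-1, a homeodomain protein of the paired-like class, is known for its part in the defecation motor program, where enteric muscles need it to express exp-1, a GABA-gated cation channel. Homeodomains bind short AT-rich sites with the core TAAT, and proteins of the paired class can bind a pair of such cores as dimers. Worm promoters are compact, many genes start close to a neighbour, and most messages are trans-spliced, so the annotated start of a gene can lie downstream of the place where transcription begins. A peak in the window of only 1 gene can be assigned to a gene more directly than a peak between divergent genes. In whole larvae the cell type in which a site was occupied cannot be read from the peak, and a site in few cells cannot be told apart from a weak site in many.

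The sequences below take in the 50 bp to each side of a summit, read in the direction of the gene from the RefSeq WBcel235 genome. They are chosen examples that hold the words described below, and do not stand for the strong peaks as a set. The first 4 belong to the 4 strongest of the peaks that hold the word AAACACGC, in capitals on either strand. They lie at rpl-3 (chrIII:3867523-3867623), cdc-48.1 (chrII:10563518-10563618), rpl-35 (chrIII:7854638-7854738) and cox-5A (chrIII:12905151-12905251), at ranks 2, 10, 16 and 25 of the IDR list by the authors' signal.
rpl-3: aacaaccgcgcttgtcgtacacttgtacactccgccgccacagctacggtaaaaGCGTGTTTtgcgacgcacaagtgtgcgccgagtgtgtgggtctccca
cdc-48.1: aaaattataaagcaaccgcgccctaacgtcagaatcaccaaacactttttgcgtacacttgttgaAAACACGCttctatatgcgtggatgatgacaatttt
rpl-35: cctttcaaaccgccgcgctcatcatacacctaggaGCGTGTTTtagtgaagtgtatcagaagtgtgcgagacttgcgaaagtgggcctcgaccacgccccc
cox-5A: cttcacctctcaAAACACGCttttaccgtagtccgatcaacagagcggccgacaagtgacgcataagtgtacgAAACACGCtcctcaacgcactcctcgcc

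The next sequences show 8-base words that recurred at many summits. Capitals mark AAACGCGC in mrck-1 (chrV:6267582-6267682) and T07F10.3 (chrV:12870079-12870179), and GCGCCAGC in eelo-2 (chrIV:17249859-17249959) and pcn-1 (chrIV:4049664-4049764), the gene of the replication clamp PCNA. In ntl-11 (chrIV:15471562-15471662) capitals mark CTGCGTCT.
mrck-1: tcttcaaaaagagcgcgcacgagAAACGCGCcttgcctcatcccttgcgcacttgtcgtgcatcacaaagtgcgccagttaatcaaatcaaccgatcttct
T07F10.3: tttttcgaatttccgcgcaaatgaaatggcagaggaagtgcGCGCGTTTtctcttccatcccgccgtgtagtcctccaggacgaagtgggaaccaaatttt
eelo-2: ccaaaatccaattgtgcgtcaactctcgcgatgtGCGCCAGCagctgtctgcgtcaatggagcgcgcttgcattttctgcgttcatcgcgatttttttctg
pcn-1: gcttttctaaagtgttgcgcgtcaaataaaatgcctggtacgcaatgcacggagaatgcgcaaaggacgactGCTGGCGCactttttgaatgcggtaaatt
ntl-11: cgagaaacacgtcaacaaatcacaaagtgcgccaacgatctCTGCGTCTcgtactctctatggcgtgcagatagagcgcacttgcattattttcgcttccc

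A further 8-base word, CTCTCGGA, stood inside a longer shared stretch. It is shown for sqd-1 (chrIV:6323812-6323912), where it is on the other strand, cyn-10 (chrII:6913464-6913564), the gene of a cyclophilin, and C49A9.10 (chrIV:6206531-6206631). The last sequences carry the repeat GAGAGA. They lie at hsp-1 (chrIV:17278515-17278615), the gene of a constitutive Hsp70 chaperone, and at exp-1 (chrII:6161747-6161847).
sqd-1: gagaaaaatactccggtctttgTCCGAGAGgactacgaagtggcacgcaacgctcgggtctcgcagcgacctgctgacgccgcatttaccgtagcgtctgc
cyn-10: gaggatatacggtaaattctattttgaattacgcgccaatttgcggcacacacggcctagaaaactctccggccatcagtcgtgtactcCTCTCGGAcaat
C49A9.10: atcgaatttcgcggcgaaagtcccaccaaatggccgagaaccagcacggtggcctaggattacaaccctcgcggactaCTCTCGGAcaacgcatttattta
hsp-1: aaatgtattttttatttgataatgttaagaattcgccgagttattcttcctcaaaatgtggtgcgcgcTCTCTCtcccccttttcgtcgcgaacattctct
exp-1: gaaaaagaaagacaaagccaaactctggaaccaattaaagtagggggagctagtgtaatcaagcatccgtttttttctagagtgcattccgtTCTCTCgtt

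Most of the single-gene autosomal summits lay just upstream of the gene. The median position was -260 bp relative to the gene start, with quartiles at -528 and -128 bp, against a median of -302 bp for single-gene peaks on X and -140 bp to the nearest start for autosomal peaks shared by genes. Of the 1327 summits, 1235 (93.1%) were upstream of the start. A span from 300 to 100 bp upstream held 474 of them (35.7%, 33.1 to 38.4), while it makes up 16.2% of the sequence in single-gene windows. At over 500 bp upstream there were 355 (26.8%, 24.4 to 29.2), against 42.5% of the window sequence. The 92 summits downstream of the start were 6.93% of the set, against 16.8% of the window sequence.

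**Figure D1:**
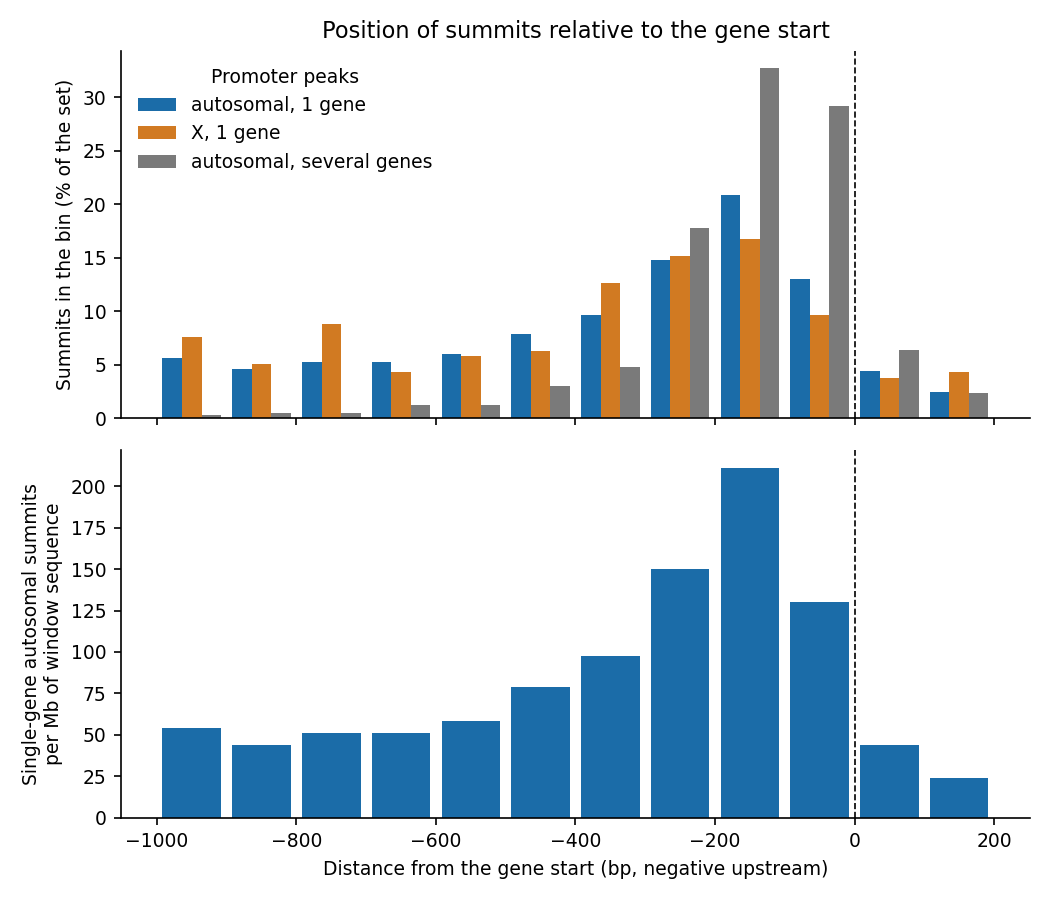
Upper panel: share of summits (%) in bins of 100 bp by distance from the gene start, for autosomal promoter peaks of 1 gene (blue), X promoter peaks of 1 gene (orange) and autosomal promoter peaks of several genes (grey, distance from the nearest start). Lower panel: autosomal summits of 1 gene per Mb of single-gene window sequence in the same bins, highest at 211 per Mb between 100 and 200 bp upstream and 24.3 per Mb in the last bin downstream.

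Per Mb of window sequence, summits numbered 211 between 100 and 200 bp upstream, 150 between 200 and 300 bp upstream and 130 in the last 100 bp before the start. Further than 500 bp upstream the density stayed between 44 and 58.3 per Mb. Over the whole of the single-gene windows, which make up 19.6% of the autosomes, there were 82.0 summits per Mb, against 58.4 IDR peaks per Mb of autosome. The median signal rank was 2587 in the bin between 200 and 300 bp upstream and 4330 in the first 100 bp downstream of the start, where 1 is the strongest peak. These were the lowest and highest medians of all bins. The bin between 200 and 300 bp upstream held 31 of the 125 peaks that ranked among the 500 strongest, and 14.8% of all members. Its 31 were the highest count of any bin, and 15.8% of its 196 members. The densest bin, between 100 and 200 bp upstream, held 16 among its 278 members (5.76%). Of all members 9.42% ranked among the 500 strongest.

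The window ends fell among ordinary peaks. The 31 members in the outermost 50 bp upstream had a median rank of 2792, and the 39 summits in the next 50 bp outside had 3256. At the downstream end the 15 members in the last 50 bp had a median rank of 3175 and the 17 just outside had 2709. The members nearest the upstream end, at dhs-8, sup-1 and T28C6.7, each lay 1000 bp upstream at ranks 2080, 3535 and 5469. Just beyond it were summits 1001 bp from mam-8, 1003 bp from ZC404.15 and 1003 bp from lin-10, at ranks 4913, 4382 and 6109. At the other end the members were at hrpk-1, K10F12.7 and rab-7, with summits 197, 196 and 193 bp downstream and ranks 1107, 5983 and 5933. The nearest summits outside lay just past the end at let-607 and 205 and 208 bp downstream of R02F2.1 and cmd-1, at ranks 4172, 1315 and 2201.

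By gene model, 1089 of the summits (82.1%, 79.9 to 84.1) fell outside the exons and introns of protein-coding genes, where 54.7% of single-gene window bases lie. Coding exons held 46 summits (3.47%), against 22.7% of window bases. Introns held 103 (7.76%) against 13.7%, 5′ UTRs 57 (4.30%) against 3.61% and 3′ UTRs 30 (2.26%) against 5.15%. The remaining 2 summits were in other exons. Of the summits inside genes, 92 were inside the gene they were assigned to and 146 lay upstream of it in another gene.

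The genes with such a peak were set beside all eligible genes, those whose windows have sequence of their own. Their median length was 2732 bp, against 1976 bp for all 16925 eligible genes, and 43.8% (41.1 to 46.7) had several annotated transcripts, against 30.1%. The median distance to the next protein-coding gene upstream was 1724 bp, against 961 bp. That neighbour was on the same strand for 57.5% of the genes (54.7 to 60.3), against 51.4%. A neighbour on the same strand within 500 bp, as inside an operon, was present at 18.6% (16.5 to 20.9) and at 19.2% of the eligible genes. Because a summit had to lie in the window of exactly 1 gene, genes with a close or divergent upstream neighbour were less likely to be chosen, and the distance to that neighbour and its strand are in part set by the rule.

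The peaks were spread over all 5 autosomes. There were 275 on I, 234 on II, 253 on III, 246 on IV and 319 on V. The share of eligible genes with a peak was 9.28% on I (8.24 to 10.4) and 9.16% on III (8.07 to 10.3), against 6.59% on II (5.77 to 7.47), 7.18% on IV (6.31 to 8.13) and 6.09% on V (5.44 to 6.80). The intervals of I and III lie above those of II, IV and V, except that the lower end on III is under the upper end on IV.

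Peak strength spread over the whole IDR list. The median rank was 3051, which is the 51.4th percentile of signal, against 62.4 for shared autosomal promoter peaks, 45.6 for single-gene peaks on X and 46.4 for autosomal peaks in no promoter window. Among the 100 strongest IDR peaks 21 were single-gene autosomal promoter peaks, and among the 500 strongest 125 (25%) were. These shares are close to the 21.1% that such peaks make up of the whole IDR list. The strongest was at rpl-3, which encodes a protein of the large ribosomal subunit. It ranked 1 in replicate 1 and 2 in replicate 2, and its summit was 281 bp upstream. At egg-5, a gene of the oocyte-to-embryo transition, the peak ranked 5 in replicate 1 and 11 in replicate 2. The peak of cdc-48.1, the gene of an AAA ATPase that unfolds ubiquitinated proteins, lay 161 bp upstream at ranks 4 and 15 in replicates 1 and 2. The peak of rpl-35 lay 446 bp upstream at ranks 9 and 18. That of cox-5A, a subunit of cytochrome c oxidase, lay 290 bp upstream at ranks 27 and 26. All of these stood among the strongest peaks of both replicates.

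Others of the 20 strongest were at ints-4, cmtr-1, tos-1 and eif-3.B. The peak of ints-4, a subunit of the Integrator complex, lay 34 bp downstream of the start in its 5′ UTR, at ranks 44 and 48 in replicates 1 and 2. That of cmtr-1, which encodes a cap methyltransferase, lay 138 bp upstream at ranks 49 and 53. The peak of tos-1 lay 97 bp upstream, and that of eif-3.B, a subunit of translation initiation factor 3, lay 268 bp upstream. At eif-3.B the ranks were 38 and 129, the widest spread of these 4. The rest of the 20 included mrck-1, C47E8.4, hsp-1, eelo-2 and the histone gene his-37, with summits 345, 297, 394, 222 and 76 bp upstream. Further from the start lay F10C5.3, H41C03.3, R02F2.1, F08G2.5, D1046.16 and F41E6.7, at 922, 952, 941, 929, 798 and 873 bp upstream. The peak of egg-5 lay 578 bp upstream. At hsp-1 the ranks were 122 in replicate 1 and 42 in replicate 2.

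Both replicates held most of the peaks. Of the 1327, 1195 (90.1%, 88.3 to 91.6) overlapped a peak among the strongest 6283 of replicate 1 and 1217 (91.7%, 90.1 to 93.1) among those of replicate 2. Both did so for 1098 (82.7%, 80.6 to 84.7) and neither for 13, and 97 were there only in replicate 1. The IDR list was made from these replicates, so this is no independent measure. Within the full replicate lists 1311 had an overlapping peak in both, and across these the Spearman correlation of ranks was 0.833, a description across peaks selected in the same libraries. Summits in replicate 1 lay a median of 11 bp from those of the IDR peaks, and those in replicate 2 lay 5 bp away.

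**Figure D2:**
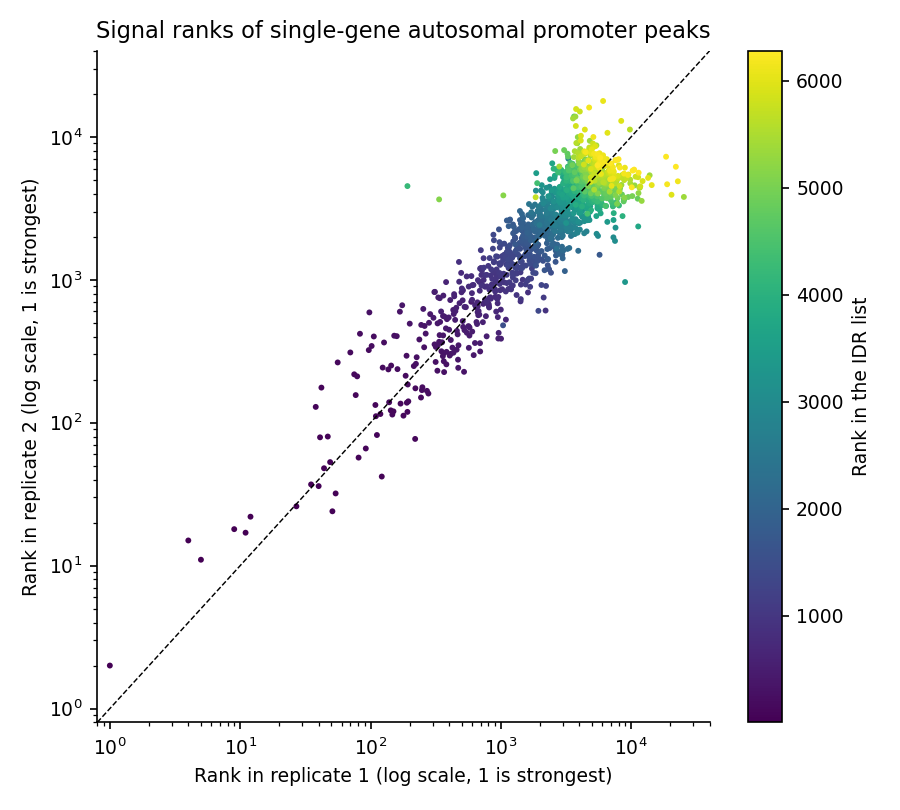
Rank by signal in replicate 1 (x axis, log scale) and replicate 2 (y axis, log scale) of the 1311 single-gene autosomal promoter peaks found in both full lists, coloured by rank in the IDR list. The dashed line marks equal ranks. Most points lie along it, and most of those far from it are of peaks low in the IDR list.

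The peaks with the widest differences in rank number between replicates were weak in the IDR list. Differences this wide need a low rank in 1 of the replicates, so this weakness was in part set by the choice. It does not show that strong peaks repeated better. At aars-2, an alanyl-tRNA synthetase gene, the rank was 3778 in replicate 1 and 15645 in replicate 2. At pdl-1 it was 6087 and 17807, and at F53C11.4 4757 and 16034. In the other direction, the peak 648 bp upstream of maph-1.1 ranked 25365 in replicate 1 and 3796 in replicate 2. At akap-1, which encodes an A-kinase anchor protein, the ranks were 20387 and 3933, and at D1086.8 22805 and 4882. The IDR ranks of these 6 lay between 5360 and 6160.

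At 73 of the 1252 genes (5.83%) more than 1 peak was assigned. There were 71 genes with 2 peaks and 2 genes with 3, lin-59, which encodes a chromatin protein, and dct-15. Neighbouring summits of a gene were a median of 219 bp apart, from 199 to 927 bp. Many of the gaps lay close to the smallest, and whether the peak calling set a smallest spacing was not tested. In 11 genes neighbouring summits lay inside 1 region of the list, so that the 1327 peaks are 1315 distinct regions. At lin-59 the summits lay 15, 316 and 546 bp upstream at ranks 1677, 2108 and 3038. At dct-15 they lay 149, 940 and 349 bp upstream at ranks 1813, 1996 and 5646. The lin-59 summits all lay in 1 region, and those at 316 and 546 bp had the same replicate 1 rank, 1857. The dct-15 summit at 349 bp ranked 9808 in replicate 1 and had no overlapping peak in the full list of replicate 2.

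The sequence at the summits was richer in GC than its surroundings. The median GC content of the stretch of 50 bp to each side of the summit was 43.6% (quartiles 37.6 and 49.5), against 33.7% for the windows 300 bp to each side and 34.7% for 147645 windows of the same length tiled over the single-gene promoter windows. Shared autosomal promoter peaks and single-gene peaks on X both had a median of 45.5%, and autosomal peaks in no promoter window had 40.6%. Both strands of this stretch were searched for each word separately, so that overlapping matches count for each word.

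**Figure D3:**
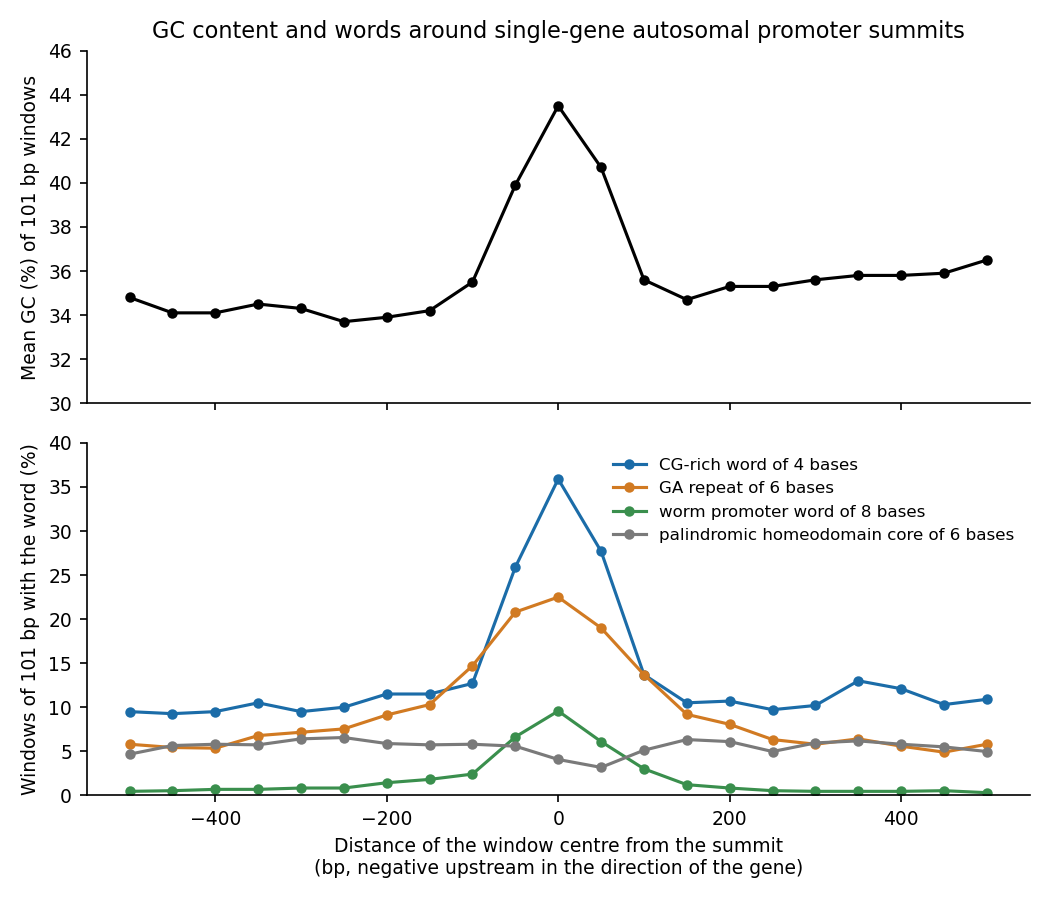
Upper panel: mean GC content (%) of windows of 50 bp to each side of their centre, by distance of the window centre from the summit, over all 1327 peaks. Lower panel: share of these windows (%) with the CG-rich word of 4 bases, the GA repeat of 6 bases, CTGCGTCT and the palindromic homeodomain core of 6 bases. All but the homeodomain core are highest at the summit, at 35.9%, 22.5% and 9.57%, while the core is at 4.07% there and 6.56% in the window centred 250 bp upstream.

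The homeodomain core was at a lower share of summits than of the flanks. The palindrome TAATTA was found at 54 summits (4.07%, 3.07 to 5.28), against 6.41% and 5.95% in the upstream and downstream flanks and 5.19% of tiles. Shared autosomal promoter peaks held TAATTA at 4.13%, single-gene peaks on X at 3.54% and autosomal peaks in no promoter window at 4.77%. The single core TAAT was present at 52.6% of summits (49.9 to 55.3), against 66.0% of tiles. A pair of cores, TAAT and ATTA separated by 3 bases, as bound by paired-class dimers, was present at 5 summits (0.377%, 0.122 to 0.877), against 0.517% of tiles. For TAATTA and for the pair the interval holds the share of tiles. These words hold only A and T, and the GC content of the summits was 43.6%, and the part of base composition in these differences was not tested. Absence of these letters from a summit says nothing on how DSC-1 was held at a region.

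CGCG was the most frequent of the enriched words, at 476 summits (35.9%, 33.3 to 38.5), against 8.95% of tiles. Peaks shared by genes held it at 53.0% (49 to 57), single-gene peaks on X at 27% (22.7 to 31.7) and autosomal peaks in no promoter window at 15.9%. The GA repeat GAGAGA was found at 299 summits (22.5%, 20.3 to 24.9), against 5.96% of tiles, 17.1% (14.3 to 20.3) of shared peaks and 26% (21.8 to 30.6) of those on X. Autosomal peaks in no promoter window held it at 22.2% (20.6 to 23.8), close to the share of the members. Where a member summit held GAGAGA on a single strand, the gene's own strand carried it in 34.0% (28.6 to 39.8). The CT repeat was thus more often on the strand that reads like the message. CTGCGTCT was found at 127 summits (9.57%, 8.04 to 11.3), 12.7 times its share of tiles (0.756%), against 5.56% (3.90 to 7.64) of shared peaks and 6.82% (4.54 to 9.77) of those on X. Autosomal peaks in no promoter window held CTGCGTCT at 6.44% (5.55 to 7.42). In the 127 members with this word its median distance from the summit was 15.5 bp. At 88.2% of these summits the next base was C.

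CTGCGTCT and the GA repeat went together. GAGAGA was present at 73 of the 127 summits with CTGCGTCT (57.5%, 48.4 to 66.2), against 226 of 1200 without it (18.8%, 16.7 to 21.2). In 33 of the 73 the matches overlapped. These words also went together in tiles, so the pairing is not particular to the summits. Of 147645 tiles 1116 held CTGCGTCT and 8800 held GAGAGA, and 8382 held GAGAGA without CTGCGTCT. CGCG was present at 37% (28.6 to 46) with CTGCGTCT and 35.8% (33 to 38.5) without it. At least 1 of these 3 words was present at 719 summits (54.2%, 51.5 to 56.9), against 14.7% of tiles, and 608 summits held none of them.

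Other GC-rich words were also at a higher share of summits than of tiles. The GC box core GGGCGG was found at 6.41% of summits, against 1.90% of tiles, CTCCGCCC at 1.96% against 0.484%, the E2F core GCGCGAA at 2.49% against 0.525% and the E-box CACGTG at 3.54% against 1.76%. The strongest peaks with GGGCGG were at D1046.16 and W04C9.4, and those with CTCCGCCC at lgg-1, an autophagy gene of the Atg8 family, and F56H9.2. The strongest with GCGCGAA were at snr-4, a core snRNP protein gene, and F13A7.14, and the strongest with CACGTG at tos-1 and F41E6.7. AT-rich elements were less frequent than in tiles, with TATAAA at 7.69% against 12.5% and a run of 8 T at 5.20% against 12%. The trans-splice acceptor TTTCAG was at 9.34% against 19.6%, and at 25.5% in the downstream flanks, on the side of the gene. The GATA factor site GATAAG was at 2.94% against 4.33%.

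All 8-base words were also counted, a step added after the values above had been seen, and 124 of them were present at 2.5% of the summits or more. The highest ratio to tiles was that of GCGCCAGC, at 38 summits (2.86%, 2.03 to 3.91) against 0.103% of tiles, and AAACGCGC was at 68 (5.12%, 4.00 to 6.45) against 0.276%. CTCTCGGA was at 33 summits (2.49%, 1.72 to 3.47) against 0.259%. All 3 words were at a higher share of the shared autosomal promoter peaks and a lower share of single-gene peaks on X. For GCGCCAGC these shares were 5.56% and 1.77%, for AAACGCGC 7.14% and 3.79%, and for CTCTCGGA 3.81% and 0.253%. In the direction of this word, G was present 6 bases before it in 90.9% of the 33 and T and C directly before it in 87.9% and 81.8%. The word ran in the direction of the gene at 23 of the 33 (69.7%, 51.3 to 84.4). AAACACGC, noticed at the strongest peaks, was at 24 summits (1.81%, 1.16 to 2.68) against 0.242% of tiles. It was at 7 of the 125 members among the 500 strongest IDR peaks (5.60%, 2.28 to 11.2). Of the other 1202 members 17 held it (1.41%, 0.826 to 2.25). Because the word was picked from strong peaks, this difference was in part set by the choice.

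Some of these words were spread unevenly over peak strength. CTCTCGGA, picked for its count there, was at 16 of the 125 members among the 500 strongest IDR peaks (12.8%, 7.5 to 20) and at 17 of the other 1202 (1.41%, 0.826 to 2.25). GCGCCAGC was at 12% (6.87 to 19) of the 125 and at 1.91% (1.22 to 2.86) of the others, and AAACGCGC at 10.4% (5.65 to 17.1) and 4.58% (3.47 to 5.91). CTGCGTCT was at 8.80% (4.48 to 15.2) and 9.65% (8.04 to 11.5). The strongest peaks with CTCTCGGA were at sqd-1, an RNA-binding protein gene, at pinn-1, a prolyl isomerase gene, and at cyn-10 and C49A9.10, at IDR ranks 152, 185, 207 and 208. All 4 of them ranked higher in replicate 1 than in replicate 2 or equal, at 139 and 139 for sqd-1, 97 and 322 for pinn-1, 83 and 419 for cyn-10 and 102 and 344 for C49A9.10.

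**Figure D4:**
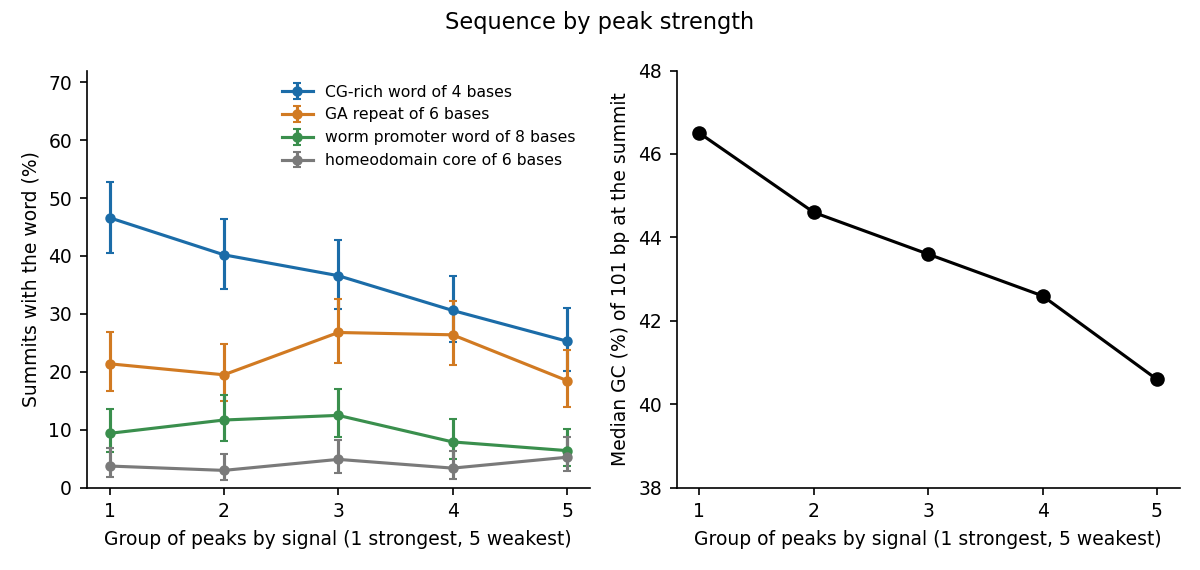
Left: share of summits (%, exact 95% intervals as bars) with each word in 5 groups of 265 or 266 peaks by signal, the strongest first. Right: median GC content (%) at the summit in the same groups. The CG-rich word is at 46.6% in the strongest group and 25.3% in the weakest, and GC at 46.5% and 40.6%. CTGCGTCT stays between 6.42% and 12.5% and the homeodomain core between 3.01% and 5.28%.

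Split into 5 groups by signal, CGCG was at 46.6% (40.5 to 52.8) of the strongest group and 25.3% (20.2 to 31.0) of the weakest, and the median GC content was 46.5% and 40.6%. Median positions were -262 and -259 bp. The share outside genes was 84.6% and 77.4%. TAAT was at 47.4% (41.2 to 53.6) of the strongest group and 59.6% (53.4 to 65.6) of the weakest, and TAATTA at 3.76% (1.82 to 6.80) and 5.28% (2.92 to 8.71).

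Genes were grouped by lists of pathways, families and cell type markers, drawn up with earlier results of these peaks known. Of 17242 autosomal protein-coding genes 7.26% had a single-gene promoter peak, or 7.40% of the 16925 that are eligible because part of their window belongs to no other gene. Another 1226 genes had only summits that they share with a neighbour. Shares of a list are read against the 7.40%, and their order is that of single-gene peaks alone. Only shared summits were at 54.4% of autosomal cytosolic ribosomal protein genes, 30.8% of nuclear pore, 29.5% of respiratory chain and 30.3% of proteasome genes. For body-wall muscle and neuronal genes this share was 6.45% and 3.03%. With both kinds of summit counted, the lists named first had higher shares than muscle and neuronal genes.

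**Figure D5:**
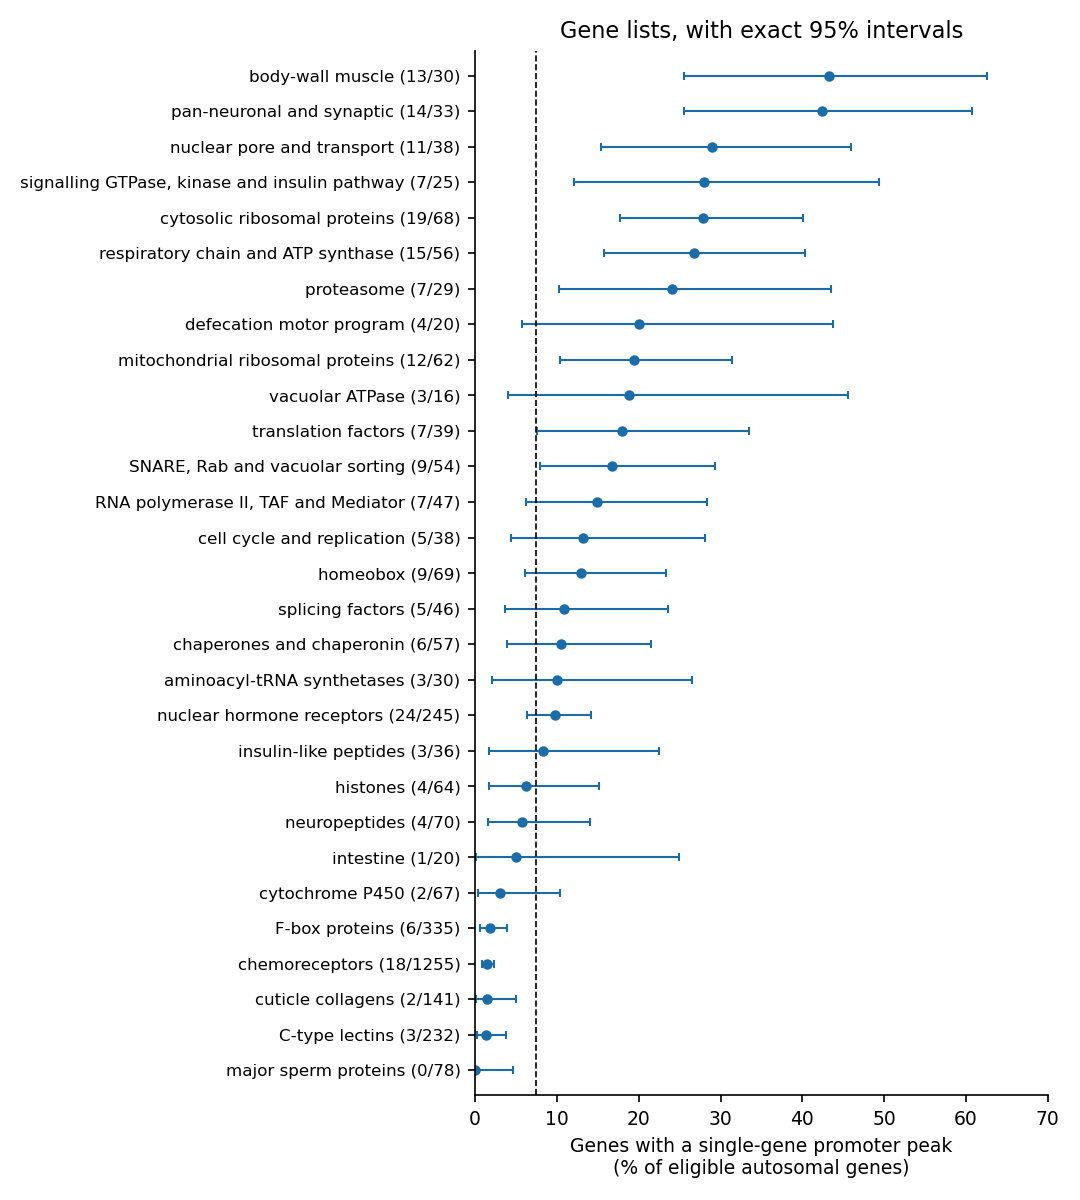
Share of eligible autosomal genes of each list (%, points) with a single-gene promoter peak, with exact 95% intervals and, in brackets, the number of genes with a peak and of eligible genes. The dashed line is the 7.40% of all eligible genes. Muscle and neuronal lists are highest, at 43.3% and 42.4%, and the gene families at the bottom lie under 2%, with no peak among 78 major sperm protein genes.

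Body-wall muscle genes had the highest share with a single-gene peak, 13 of 30 eligible genes (43.3%, 25.5 to 62.6). Most of them encode parts of the sarcomere and its attachment. Among these are the myosin heavy chains unc-54 and myo-3, the light chain mlc-3, paramyosin (unc-15), actins (act-1, act-3) and troponin I (tni-3). Others are a calponin (cpn-3), obscurin (unc-89) and the attachment proteins unc-112, pat-4 and pat-6. The list also holds the ryanodine receptor gene unc-68. None of the peaks was among the 500 strongest. The strongest were 82 bp upstream of tni-3, in an intron, at ranks 934 and 741 in replicates 1 and 2, and 653 bp upstream of cpn-3 at ranks 976 and 1832. The list's median rank was 2816, its counts were 12 in the strongest peaks of replicate 2 alone and 13 in those of replicate 1, and a further 2 genes had only shared peaks.

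Neuronal and synaptic genes followed with 14 of 33 (42.4%, 25.5 to 60.8) and 1 more with shared peaks. They include synaptic vesicle fusion genes, snb-1 (synaptobrevin), ric-4 (SNAP-25) and snt-1 (synaptotagmin), and endocytosis genes, unc-11, unc-26 (synaptojanin) and ehs-1. Others are the calcium channel subunit gene unc-36, the potassium channel gene shk-1, the calcineurin gene tax-6, the neuropeptide processing gene egl-21, rgef-1, unc-14, unc-76 and unc-108. The strongest was at unc-108, a Rab GTPase gene, 52 bp upstream at ranks 405 and 295 in replicates 1 and 2, and the next at unc-76, 305 bp upstream at ranks 948 and 548. The counts were 13 in the strongest peaks of replicate 2 alone and 12 in those of replicate 1. The list's median rank of 3362 was close to that of all members, 3051.

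Nuclear pore and transport genes came next, with peaks at 11 of 38 (28.9%, 15.4 to 45.9), with the strongest at npp-8 (rank 499) and npp-13 (rank 716). A further 12 of them had only shared peaks. Cytosolic ribosomal protein genes had peaks at 19 of 68 (27.9%, 17.7 to 40.1), and 43 more had only shared peaks. The respiratory chain and ATP synthase had 15 of 56 (26.8%, 15.8 to 40.3), the strongest at cox-5A and isp-1, and 18 more with shared peaks. With a window from 2000 bp upstream to 200 bp downstream the 15 became 8. Proteasome genes had 7 of 29 (24.1%, 10.3 to 43.5), led by rpn-11 and pas-5, and 10 more had only shared peaks. Mitochondrial ribosomal proteins had 12 of 62 (19.4%, 10.4 to 31.4), led by mrpl-28 and mrps-35, and 12 more had only shared peaks. The peaks of several lists were stronger than the set, whose median rank was 3051, and those of others were weaker. Median ranks were 1612 for cytosolic ribosomal protein genes, 1543 for the respiratory chain and 1404 for translation factors. They were 677 for cell cycle genes and 1317 for splicing factors, with 5 genes each, and 2474 for mitochondrial ribosomal proteins. Weaker medians were 3829 for proteasome genes and 4014 for SNARE, Rab and vacuolar sorting genes. Vacuolar ATPase genes had 3697 and aminoacyl-tRNA synthetases 5870, with 3 genes each.

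For some pathways the intervals reached the 7.40% of all eligible genes. This holds for splicing factors with 5 of 46 (10.9%, 3.62 to 23.6), chaperones with 6 of 57 (10.5%, 3.96 to 21.5) and RNA polymerase II, TAF and Mediator genes with 7 of 47 (14.9%, 6.20 to 28.3). It holds also for cell cycle genes with 5 of 38 (13.2%, 4.41 to 28.1) and vacuolar ATPase genes with 3 of 16 (18.8%, 4.05 to 45.6). Of splicing factor genes 19 more and of chaperone genes 23 more had only shared peaks. Translation factors had 7 of 39 (17.9%, 7.54 to 33.5), and SNARE, Rab and vacuolar sorting genes 9 of 54 (16.7%, 7.92 to 29.3). With the window of 2000 to 200 bp these counts became 2 for splicing factors, 4 for RNA polymerase II, TAF and Mediator genes and 5 for SNARE, Rab and vacuolar sorting genes. Aminoacyl-tRNA synthetases had 3 of 30 (10%, 2.11 to 26.5), but 1 when the strongest peaks of replicate 2 alone were used.

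Signalling genes had 7 of 25 (28%, 12.1 to 49.4), with the Raf kinase gene lin-45 and the G protein gene gsa-1 strongest, and including akt-1, daf-16 and daf-15 of insulin and TOR signalling. Of the genes known for the defecation motor program 4 of 20 had a peak (20%, 5.73 to 43.7), an interval that holds the 7.40%. They were itr-1, the IP3 receptor gene that sets the rhythm in the intestine (IDR rank 2574), exp-1 (rank 3865), aex-5, a proprotein convertase gene (rank 4870), and unc-93, a potassium channel regulator gene (rank 5039). The exp-1 summit lay 703 bp upstream of the gene at ranks 4318 and 3832 in replicates 1 and 2, within 500 bp of the start of an annotated non-coding RNA, and the 50 bp to each side hold TAAT and GAGAGA but not TAATTA. The 4 ranks thus ran from 2574 to 5039 of 6283.

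For both families of transcription factors the interval held the 7.40%. Homeobox genes had 9 of 69 (13.0%, 6.14 to 23.3), namely ceh-23, mab-5, ceh-20, zfh-2, ceh-57, ceh-62, unc-62, nob-1 and irx-1, of which mab-5 and nob-1 are Hox genes and ceh-20 and unc-62 encode Hox cofactors. The peak of ceh-23 lay 485 bp upstream at ranks 215 and 249 in replicates 1 and 2, and is among the 5 that hold TAAT and ATTA separated by 3 bases. Nuclear hormone receptors had 24 of 245 (9.80%, 6.38 to 14.2), among them nhr-49, a regulator of fat metabolism. Their 26 peaks differed from the set in words: 13 held GAGAGA (50%, 29.9 to 70.1) and 1 held CGCG (3.85%, 0.0973 to 19.6), against 22.5% and 35.9% of all members. The strongest were 57 bp downstream of the start of nhr-196, in its 5′ UTR, at ranks 170 and 136 in replicates 1 and 2, and 406 bp upstream of nhr-158 at ranks 458 and 324. Neither of these held GAGAGA or CGCG.

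For chemoreceptor, F-box, C-type lectin, cuticle collagen and major sperm protein genes the intervals lay under the 7.40%. Chemoreceptor genes had 18 of 1255 (1.43%, 0.852 to 2.26), of which 2 held CGCG and none GAGAGA, with the strongest 922 bp upstream of srd-3 (rank 711). F-box genes had 6 of 335 (1.79%, 0.660 to 3.86), C-type lectins 3 of 232 (1.29%, 0.267 to 3.73) and cuticle collagens 2 of 141 (1.42%, 0.172 to 5.03), at col-63 and col-8. With the window of 2000 to 200 bp the collagens with a peak numbered 6. Major sperm protein genes, which are expressed in sperm, had 0 of 78 (0 to 4.62). The intervals of the remaining lists held the 7.40%. Cytochrome P450 genes had 2 of 67 (2.99%, 0.364 to 10.4), or 1 with the strongest peaks of replicate 1 alone. Intestinal genes had 1 of 20 (5%, 0.127 to 24.9), at erm-1, the ezrin gene of the apical surface. Neuropeptides had 4 of 70 (5.71%, 1.58 to 14), histones 4 of 64 (6.25%, 1.73 to 15.2) and insulin-like peptides 3 of 36 (8.33%, 1.75 to 22.5), or 1 of them in the strongest peaks of replicate 2 alone. With the window of 2000 to 200 bp the counts were 7 for neuropeptides and 1 for histones.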

How the data were processed

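DSC-1 was profiled by chromatin immunoprecipitation and sequencing in 2 biological replicates of 1 group, per the labels. The authors deposited peak lists with a signal value per peak, whose scale is not stated and which served only to rank peaks within a list. Their deposited −log10 q-values were not used. Aligner, peak caller and IDR threshold were not given in the sources used here. The lists hold no reads, so depth is unknown. Gene models are those of Ensembl release 115 on WBcel235, the assembly of ce11, and positions are 1-based. For replicates alone the strongest 6283 peaks were used. Replicate ranks are those of the overlapping peak with the nearest summit. Tiles are windows of 50 bp to each side of their centre over single-gene promoter sequence.

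The members, lists and words were chosen with earlier results of these data known. Genes named were taken from the 20 strongest, up to 2 strongest per list, genes with 3 summits, the 3 widest replicate differences in each direction, the 3 nearest each window end on either side, and the 2 strongest per word at over 1.5 times its share of tiles. Further genes under this rule were left out of the text. Genes with the 8-base words and further genes of the muscle, neuronal, homeobox, signalling, receptor and defecation lists were named after their values were seen. Python 3.11.15, numpy 2.4.6, pandas 2.3.3, scipy 1.17.1 and matplotlib 3.10.9 were used. Assignment and word search were tested on simulated data.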

Additional observations from a re-analysis of the deposited data

How the results depend on the processing

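No paired analysis was possible because there is 1 group. With the peaks of a single replicate there were 1327 to 1330 members, 7.17% to 7.28% of genes with a peak, median positions of -266 to -247 bp, signal percentiles of 50.6 to 52.8, 81.6% to 82.1% of summits outside genes and 43.6% GC in each. TAATTA was then at 3.91% to 3.92%, GAGAGA at 20.9% to 22.1%, CTGCGTCT at 9.47% to 9.50% and CGCG at 34.8% to 35.8%. Of the 1252 genes 1019 (81.4%) kept a peak in both replicates alone. The stronger 50% of IDR peaks left 681 members, 3.82% of genes, a percentile of 76.4, 85.0% outside genes, 44.6% GC and CGCG at 42.4%. A window of 500 bp upstream to 100 bp downstream gave 6.36% of genes, -182 bp, a percentile of 53.5 and 84.7% outside genes. One of 2000 to 200 bp gave 7.78%, -560 bp, 48.8, 78.6% and 42.6% GC. Windows of every transcript start gave 8.27%, 49.2 and 67.8%. Keeping summits near tRNA genes, or leaving out those near other small RNA genes, moved none of the member results beyond their limits. With a reciprocal overlap of 50%, 64.7% of members were in the strongest peaks of both replicates, and with any overlap 98.8% were in both full lists. With 25 and 100 bp to each side of the summit, TAATTA was at 1.43% and 8.67%, GAGAGA at 11.2% and 34.5%, CTGCGTCT at 5.88% and 13.6% and CGCG at 23.9% and 44.1%. Of 87 list alternatives 10 moved by over 1.5 times, 7 of them with the window of 2000 to 200 bp and 3 with a single replicate, and the counts stand beside each list. Of 110 alternatives for the other words 41 moved beyond the interval. The cause of these changes was not tested, apart from wider windows holding more words. Unknown depth, 2 replicates and a control not analysed here limit all of these values.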

Other observations

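Starts of non-coding RNA genes lay near some of the single-gene promoter peaks. Those annotated only as ncRNA were within 500 bp of 154 summits (11.6%, 9.93 to 13.5), where 5.19% of single-gene window bases lie so near to one, and of 24 of the 125 members among the 500 strongest IDR peaks (19.2%). They were as near to 12.5% (10.1 to 15.4) of shared autosomal promoter summits and 22% (18 to 26.4) of single-gene summits on X. The start of a snoRNA gene was within 500 bp of 35 summits (2.64%, 1.84 to 3.65), against 0.414% of window bases. For snRNA genes, whose products form the spliceosome, it was 14 summits (1.06%, 0.578 to 1.76) against 0.119%, and 6 of these 14 were among the 500 strongest IDR peaks. Of these 6, egg-5 gave the summits at ranks 8 and 374 and H41C03.3 those at ranks 20 and 457. Each of these pairs lay in 1 region, and the counts and the interval treat such summits as separate. Peaks near an snRNA start include those of egg-5, H41C03.3 and snr-4, and the peak of cmtr-1 has a snoRNA start nearby. Pseudogene starts were near 12 summits (0.904%, 0.468 to 1.57) against 2.11%, and piRNA starts near 31 (2.34%, 1.59 to 3.30) against 4.38%. Which of the neighbouring genes a summit serves cannot be told apart from its position.

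The central 50% of each autosome held 65.0% of the member summits (62.3 to 67.5), against 63.3% of shared autosomal promoter summits, 67.5% of autosomal summits in no window and 55.5% of eligible gene starts. The members' share was thus close to that of the other peaks.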
